A study of Mus musculus with 2 samples.

Results

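Rpl13a encodes a protein of the large ribosomal subunit, and its introns carry genes for small nucleolar RNAs (snoRNAs). The transcription unit was taken as Rpl13a together with each gene annotated as snoRNA in GENCODE release M1 (mouse genome build mm9) that lies within the body of Rpl13a on the same strand, which gave 5 genes, Rpl13a and 4 snoRNA genes, out of 37273 annotated genes of which 1552 are snoRNA genes. The 4 snoRNAs are Snord32a, Snord33, Snord34 and Snord35a. Non-polyadenylated (NPA) RNA had been sequenced strand-specifically from R1 mouse embryonic stem cells (ESCs, passage 18, grown on mouse embryonic fibroblasts that had been stopped with mitomycin-C) and from neural progenitor cells (NPCs) derived from them, collected on day 7 after 4 days as embryoid bodies. There was 1 library per cell type, with 4271306 reads from ESCs and 4399729 from NPCs, so that 1 read was 0.234 reads per 1000000 (RPM) in ESCs and 0.227 in NPCs. With 1 library each, no test of a difference between the cell types could be made, and every interval below is an exact 95% interval that covers counting error only. Reads carried no molecular identifiers, and the ratios compare these libraries.

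Box C/D snoRNAs are short nucleolar RNAs that pair with ribosomal RNA and direct the methylation of its ribose groups. They carry a C box near the 5′ end and a D box near the 3′ end, which together bind a core of proteins that includes the methyltransferase fibrillarin. In mammals most of them are cut out of introns of host genes after splicing, and many hosts encode ribosomal proteins or translation factors, so that 1 precursor transcript can give both a spliced mRNA and several snoRNAs. A mature snoRNA has no poly(A) tail, whereas the host mRNA has one.

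The sequences of the 4 snoRNAs are shown first, since the starts of their reads and a recurrent substitution are described by position in them. They were read from the mm9 genome on the minus strand of chromosome 7, 5′ to 3′, and capitals mark the C box and the D box that a search found.
Snord32a: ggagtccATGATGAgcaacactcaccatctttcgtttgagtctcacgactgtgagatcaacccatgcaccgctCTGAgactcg
Snord33: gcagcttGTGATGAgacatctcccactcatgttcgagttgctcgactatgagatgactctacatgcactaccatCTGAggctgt
Snord34: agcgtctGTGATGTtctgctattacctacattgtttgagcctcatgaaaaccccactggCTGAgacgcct
Snord35a: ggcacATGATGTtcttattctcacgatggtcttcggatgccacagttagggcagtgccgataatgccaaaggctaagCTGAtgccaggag

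The boxes were searched as ATGATGA or GTGATGA with at most 1 mismatch, starting within the first 20 bases of the annotated gene, and as CTGA within the last 20 bases, on the gene's own strand. Each of the 4 snoRNAs held both. The C boxes of Snord32a and Snord33 matched without a mismatch, and those of Snord34 and Snord35a each had 1. By comparison, 88.2% of the 346 annotated genes named as C/D snoRNAs and 0.194% of the 1031 named as H/ACA snoRNAs held both boxes, so a match does not set these 4 apart from other C/D snoRNAs. Snord32a and Snord33 were the most alike of the 4, with 66.3% identity in a global alignment, although their longest shared run was 7 bases. No stretch of 48 nt, the length of the deposited reads, in any of the 4 snoRNAs occurred a second time in mm9, so no exact copy could share their reads. Copies with mismatches were not searched for, although the alignment allowed mismatches.

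Rpl13a (ENSMUSG00000074129.5) lies on the minus strand of chromosome 7. Its consensus coding transcript, Rpl13a-001, runs over chr7:52380928-52384118 with 8 exons, 7 introns and 1034 nt of spliced RNA. The gene body in the annotation extends to base 52391787, because some of its 13 transcripts read through into exons that lie upstream. Snord32a (ENSMUSG00000065219.1, chr7:52382752-52382834, 83 nt) lies in intron 2 of that transcript. Snord33 (ENSMUSG00000065628.1, chr7:52382234-52382317, 84 nt) lies in intron 4, Snord34 (ENSMUSG00000065878.1, chr7:52381971-52382040, 70 nt) in intron 5 and Snord35a (ENSMUSG00000065818.1, chr7:52381716-52381805, 90 nt) in intron 6. Introns 1, 3 and 7 hold no annotated snoRNA. The 4 snoRNA-bearing introns are short, from 171 to 240 nt, and the snoRNAs sit between 31 and 43 nt from the 5′ splice site and between 63 and 108 nt from the 3′ splice site.

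Nearly all reads of the transcription unit came from the 4 snoRNAs, and Snord35a alone gave the majority. The transcribed region held 23307 reads in ESCs and 15502 in NPCs, 0.546% and 0.352% of each library. The snoRNAs took 94.7% of them in ESCs (94.4 to 95.01) and 95.9% in NPCs (95.6 to 96.2). Exons took 5.03% and 3.92%, and the introns outside the snoRNAs 0.240% and 0.200%. In the plot of read cover along the gene these are 4 steep blocks over the snoRNAs, with lower and uneven cover over the exons.

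**Figure D1:**
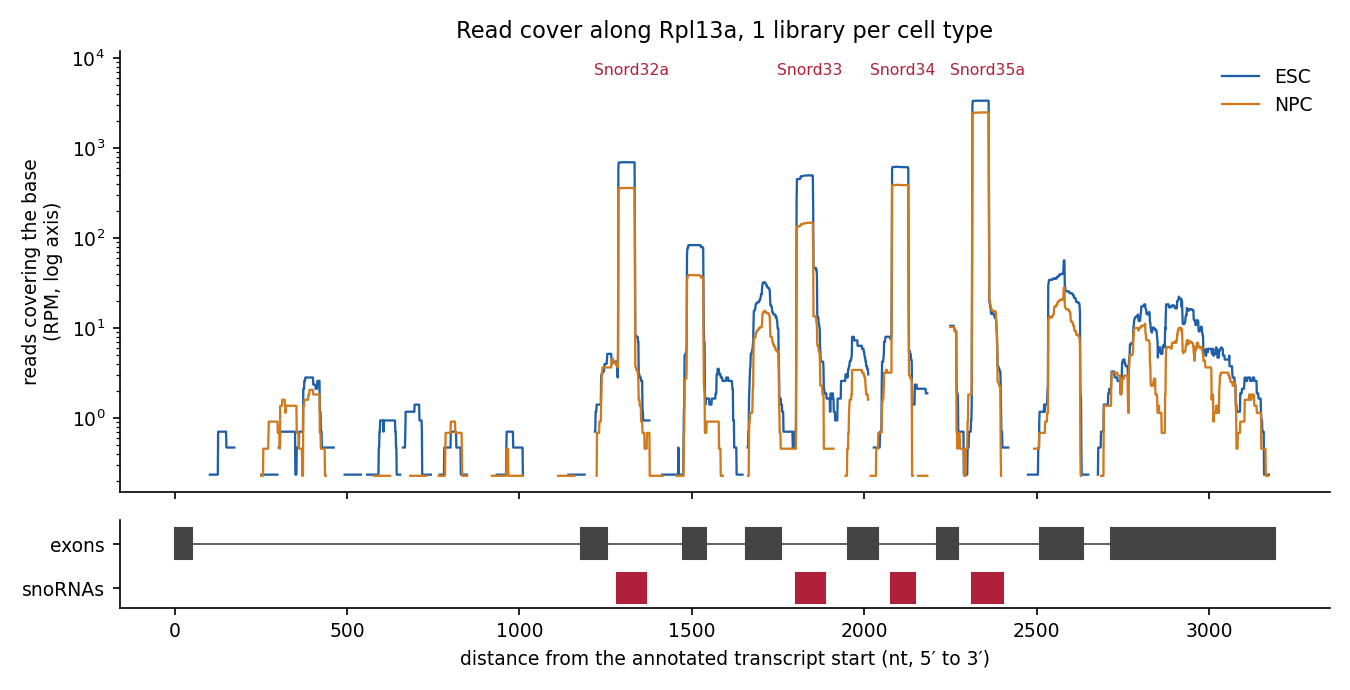
Reads covering each base of the Rpl13a transcript in RPM (log axis) against the distance from the annotated transcript start in nt, for 1 ESC and 1 NPC library, with exons and snoRNAs drawn to scale below. Cover reaches 3352 RPM in ESCs and 2478 in NPCs over Snord35a, and breaks in the lines are bases with no read.

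Snord35a was counted 14323 times in the ESC library (14089 to 14560) and 10907 times in the NPC library (10703 to 11114), which is 3353 and 2479 RPM. Among 162 C/D snoRNAs with at least 10 reads over both libraries it ranked 4 by reads in ESCs and 3 in NPCs. Snord32a had 2984 reads in ESCs and 1594 in NPCs. Snord34 had 2648 and 1711. Snord33 had 2123 and 652. These 3 ranked between 25 and 33 in ESCs, and in NPCs Snord33 ranked 50 while the other 2 ranked 30 and 32. Expressed per length, as RPM divided by the length in kilobases (RPKM), the order of levels in ESCs was Snord35a with 37259, Snord34 with 8856 (8522 to 9200), Snord32a with 8417 (8118 to 8725) and Snord33 with 5917 (5668 to 6174). Snord34 and Snord32a are neighbours in that order whose intervals overlap in ESCs. By reads their order in ESCs was the reverse, with 2984 for Snord32a (2878 to 3093) and 2648 for Snord34 (2548 to 2751). Their order in ESCs thus depended on the division by length. In NPCs the order per length was the same as in ESCs, and no intervals overlapped. The values were 27545 for Snord35a, 5556 (5295 to 5825) for Snord34, 4365 (4153 to 4585) for Snord32a and 1764 (1631 to 1905) for Snord33. Snord35a therefore made up 64.9% of the snoRNA reads of the unit in ESCs and 73.4% in NPCs, although all 4 are annotated within the same transcript.

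Every member was lower in the NPC library than in the ESC library, but by unequal amounts. The log2 ratio of NPC to ESC, scaled by the library totals, was -0.44 for Snord35a (-0.47 to -0.40), -0.67 for Snord34 (-0.76 to -0.58), -0.95 for Snord32a (-1.04 to -0.86) and -1.75 for Snord33 (-1.87 to -1.62). The exons of Rpl13a outside the snoRNAs gave 1173 ESC and 607 NPC reads, a log2 ratio of -0.99 (-1.14 to -0.85), and the introns outside the snoRNAs had 56 and 31 reads, a log2 ratio of -0.90 (-1.58 to -0.24). Of the 5 genes, 5 were lower in NPCs, against a background of 37.1% of the 14781 genes with at least 10 reads, 59.3% of the C/D snoRNAs and 86.7% of the 83 ribosomal protein genes measured. Snord33 was the 1 member that was lower by more than 2-fold, at 3.35-fold (3.07 to 3.67), where the background is 12.8% of all genes, 24.1% of C/D snoRNAs and 18.1% of ribosomal protein genes. Rpl13a lay just short of that limit at 1.99-fold (1.80 to 2.20). The median log2 ratio over all genes was 0.34, and relative to it the values were -0.77 for Snord35a, -1.01 for Snord34, -1.29 for Snord32a, -2.08 for Snord33 and -1.33 for the exons. In bulk RNA of this kind, fewer cells with the RNA and less of it per cell cannot be told apart.

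**Figure D2:**
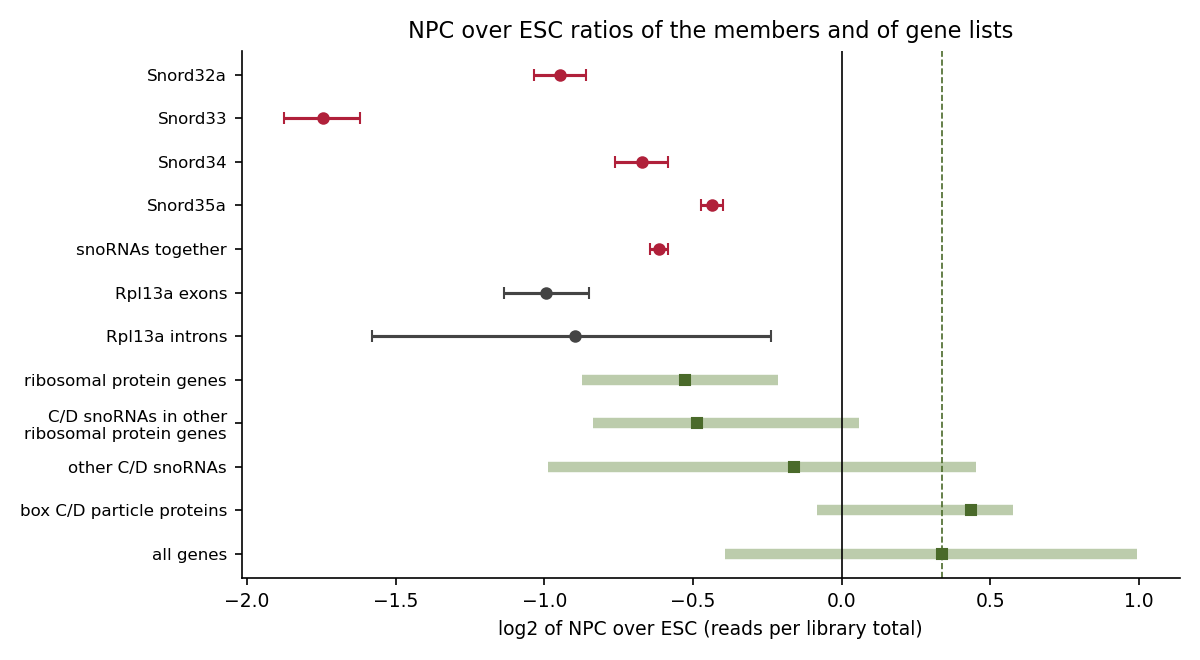
Log2 ratio of NPC to ESC reads per library total for the 4 snoRNAs, their sum, and the exons and introns of Rpl13a (points with exact 95% intervals), with the medians (squares) and quartiles (bars) of 5 gene lists below. The solid line is 0 and the dashed line the median of all genes, 0.34. All members lie left of 0, and Snord33 lies farthest left at -1.75.

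Because all 4 snoRNAs are annotated within 1 transcript, the ratios were also compared with each other, which does not depend on how the libraries are scaled. All 6 pairs of snoRNAs had an interval for the ratio of their ratios that excluded 1. The widest gap was between Snord33 and Snord35a, for which the NPC to ESC ratio of Snord33 was 0.403 times that of Snord35a (0.368 to 0.442). Snord33 also stood at 0.475 times Snord34 (0.426 to 0.530) and below Snord32a, whose ratio was 1.74 times that of Snord33 (1.56 to 1.94). The gap between Snord34 and Snord35a was the narrowest, 0.849 (0.794 to 0.907). Of the 4 comparisons with the host exons, 3 had an interval that excluded 1. The ratios of Snord35a and Snord34 were higher than that of the exons, at 1.47 times (1.33 to 1.63) and 1.25 times (1.11 to 1.404), and that of Snord33 was lower, at 0.594 times (0.519 to 0.678). Snord32a had 1.03 times the exon ratio, with an interval from 0.918 to 1.16. The calls for Snord35a, Snord34 and Snord32a depended on which host reads were used. With all reads that match the spliced transcript exactly, copies elsewhere in the genome included, Snord34 stood at 1.07 times the host (0.974 to 1.18) and Snord32a at 0.884 times (0.805 to 0.972). With these reads Snord35a stayed above the host, at 1.26 times (1.17 to 1.36), and Snord33 below it, at 0.509 times (0.453 to 0.570). Matching reads across an exon junction alone, nearly all of them placed at copies, had an NPC to ESC ratio of 0.754 (0.659 to 0.861). The ratio of Snord35a, 0.739 (0.721 to 0.758), lay within that interval, so Snord35a was not above the host by these reads. The other 3 snoRNAs had lower ratios, from 0.298 for Snord33 to 0.627 for Snord34. Counting error is the sole error in these intervals, and differences between library preparations are not in them.

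Over a summed length of 327 nt, the snoRNAs held 59.5 times as many reads per length as the exons in ESCs (56.1 to 63.2). In NPCs the factor was 77.4 (71.4 to 84.1). It is a mean over the snoRNAs weighted by length, and not a sum of their single factors. The choice of host reads and exons moved this factor by more than its interval, from 34.1 and 37.996 with all reads that match the spliced transcript to 173.5 and 227.1 with exons of all transcripts. For Snord35a the factor was 140.3 in ESCs and 206.4 in NPCs. Snord34 was at 33.3 and 41.6 times the exons and Snord32a at 31.7 and 32.7 times. For Snord33 the order of the libraries was the opposite, with 22.3 in ESCs and 13.2 in NPCs. Poly(A) RNA had been removed from these libraries, so these factors describe the NPA fraction and not the cell's total content of the mRNA. Reads of each snoRNA started mostly at neighbouring bases ahead of the C box, so their number need not grow with its length. The factors therefore compare reads per length and do not give molecules of snoRNA per mRNA.

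Reads on each snoRNA started almost entirely at 1 or 2 bases just ahead of the C box. The most used start was 4 bases before the C box in all 4 snoRNAs and in both libraries. It took 88.2% of the Snord35a reads in ESCs (87.7 to 88.8) and 88.6% in NPCs (88.0 to 89.2). It took 89.8% and 88.5% of the Snord34 reads and 84.1% and 81.5% of the Snord32a reads. Snord33 was spread over 2 neighbouring bases, with 51.2% of its ESC reads (49.1 to 53.4) and 50.2% of its NPC reads (46.2 to 54.1) at base 4 of the annotated gene and a further 37.8% and 36.8% at base 5. With 2 bases on each side included, the shares were between 97.6% and 99.4% for Snord32a, Snord34 and Snord35a in both libraries, and 90.3% for Snord33 in each. The profile of starts was therefore close to equal in the 2 cell types, while the levels were not. The deposited sequences are 48 nt long, which is shorter than the reads as sequenced, so the first base of the RNA may lie a little ahead of these positions.

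**Figure D3:**
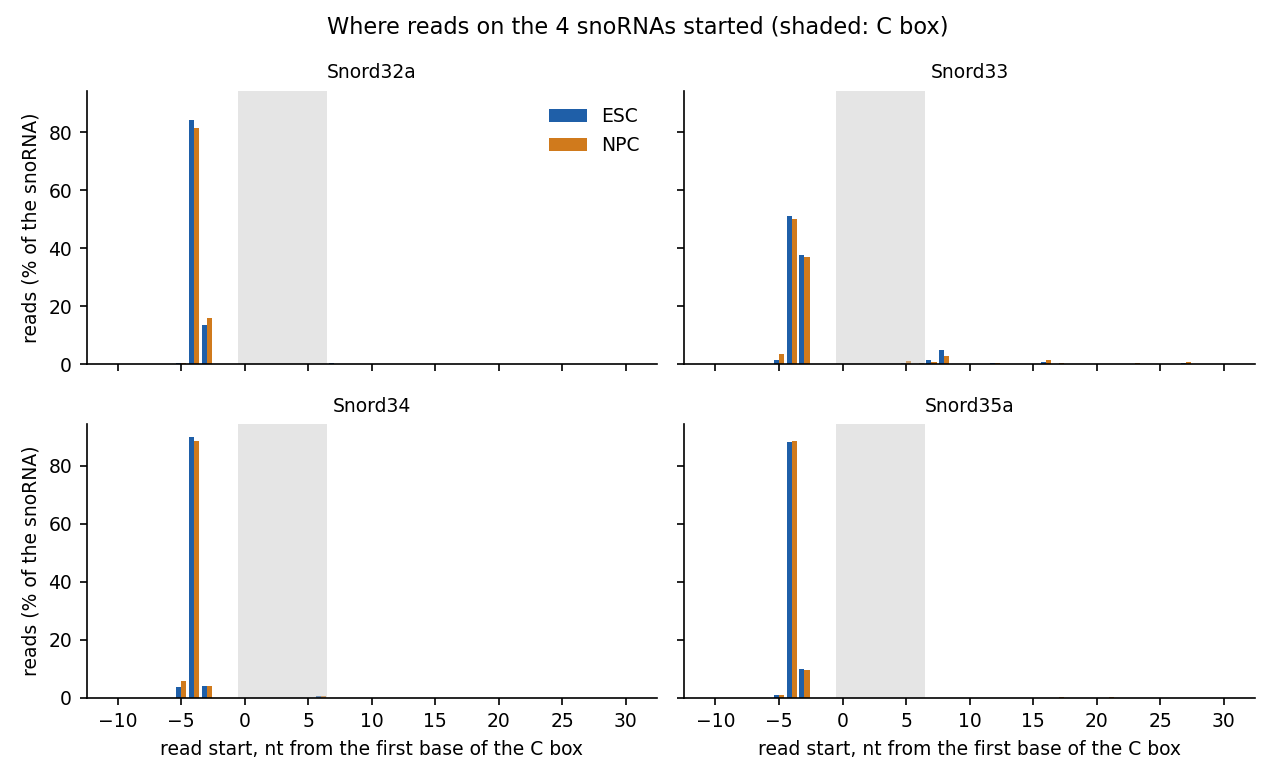
Share of the reads of each snoRNA (percent) that started at each base, counted from the first base of the C box (shaded), in the ESC and NPC libraries. The bars stand 4 bases before the C box in every panel, at 88.2% in ESCs for Snord35a, and Snord33 has a second bar of 37.8% at the next base.

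A start 4 bases ahead of the C box was common among C/D snoRNAs. Of 95 C/D snoRNAs with at least 100 reads in ESCs and a C box found by the same search, 70 had their most used start there, and in NPCs 74 of 94 did. The median share at the most used start was 79.5% in ESCs and 75.9% in NPCs, and by this share Snord34 and Snord35a ranked between 24 and 28, Snord32a ranked 40 and 42, and Snord33 ranked 88 and 86.

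Reads that began inside the snoRNAs or upstream of them were few. Starts more than 2 bases inside made up 9.51% of Snord33 reads in ESCs (8.30 to 10.8) and 9.36% in NPCs (7.23 to 11.9). The most used of these starts was base 16, with 104 and 18 reads. For the other 3 the share was at most 1.21%. Starts more than 2 bases upstream made up between 0.0279% and 1.21% of the reads in either library, highest for Snord34 in ESCs with 32 of 2648 reads. Snord32a had 18 such reads in each library. The stretch of intron between the 5′ splice site and the snoRNA held between 2 and 32 read starts in each of the 4 introns.

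Snord33 reads carried a recurrent difference from mm9 that the other 3 snoRNAs did not have. Reads without a mismatch made up 98.2% of the full-length reads on Snord32a in ESCs, 97.2% on Snord34 and 98.2% on Snord35a, but 67.7% on Snord33 (65.7 to 69.7). In NPCs the share for Snord33 was 77.5% (74.0 to 80.6), against 97.5% to 98.5% for the other 3. Most of the gap was 1 substitution, A18C, with positions counted from 1 at the annotated 5′ end of Snord33 (base 52382300 of chromosome 7, 4 bases after the C box). It was present in 663 of 2064 ESC reads over that base, 32.1% (30.1 to 34.2), and in 134 of 622 NPC reads, 21.5% (18.4 to 24.99), so the odds of reading C were 1.72 times higher in the ESC library (1.39 to 2.15). No other base of the 4 snoRNAs reached 5% with at least 10 reads. The share depended on where a read started. Among ESC reads it was 50.5% for those that started at base 5 (47.0 to 54.0), 23.3% for those at base 4 (20.9 to 26.0) and 0 of 104 for those at base 16, which allows a share of up to 3.48%. In NPCs it was 34.2% at base 5 (28.2 to 40.5), 14.7% at base 4 (11.03 to 19.0) and 0 of 18 at base 16, which allows up to 18.5%. The NPC share was the lower at both main starts, and in both libraries the reads that began 1 base later carried the substitution more often.

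**Figure D4:**
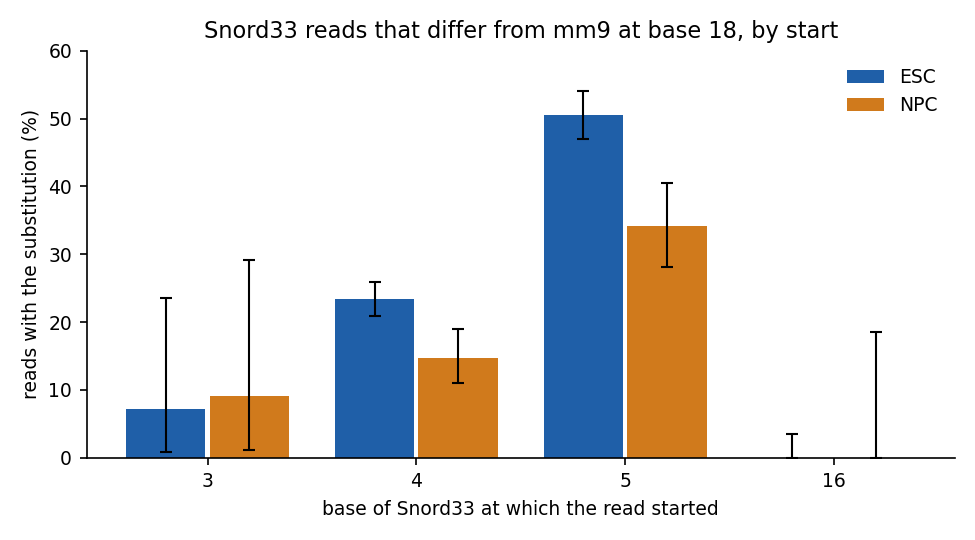
Share of Snord33 reads (percent, with exact 95% intervals) that carried A18C, by the base of Snord33 at which the read started, in the ESC and NPC libraries. The share is 23.3% at base 4 and 50.5% at base 5 in ESCs, 14.7% and 34.2% in NPCs, and no read that started at base 16 carried it.

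Without reads that have any mismatch, the log2 ratio of Snord33 was -1.55 (-1.70 to -1.40), so Snord33 was still the lowest of the 4 snoRNAs in NPCs relative to ESCs. The other 3 moved by less than their intervals. A substitution outside the snoRNAs was seen in intron 5 at base 52382045 of chromosome 7, a C-to-T change just upstream of Snord34, in 19 of 34 ESC reads and 3 of 14 NPC reads. Another, A to T, lay in exon 8 at base 52381174, in 15 of 69 ESC reads and 2 of 31 NPC reads. The cause of these substitutions was not tested.

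The exon reads were placed unevenly along the mRNA. Exon 1, of 49 nt, has only 2 start positions at which a read fits within it, and it had 0 reads in both libraries. Exon 2 had 7 in ESCs and 4 in NPCs, all of which ran over its edge. Reads of exon 2 that also touched Snord32a were counted for Snord32a and are not among these. Exon 3 held 361 and 173 reads, exon 4 held 143 and 69, exon 5 held 37 and 16, exon 7 held 257 and 130, and exon 8, the longest, held 323 and 170. Per start position that fits within the exon, exon 3 held 18.6 and 8.89 reads and exon 8 held 0.734 and 0.383. In exons 3, 4, 5, 7 and 8 the log2 ratio of NPC to ESC lay between -1.25 and -0.97. Exon 6 had 45 reads in each library, a log2 ratio of -0.04 (-0.67 to 0.59), and without it the ratio for the other exons was -1.05. Reads over exon 6 were incomplete, since no read of either strand or library was placed over chr7:52381869-52381934, which takes 39 nt of exon 6 and 27 nt of intron 5. Reads that ran into this stretch of 66 nt were shortened at its edges, 53 in ESCs and 46 in NPCs. Read starts up to base 517 of the spliced transcript, its middle, made up 72.4% of exon reads in ESCs (69.8 to 75.01) and 72.4% in NPCs (68.7 to 76.0). The share was 57.0% and 59.6% when only reads whose sequence occurs once in mm9 were used. That setting drops most positions of exons 2, 3 and 7, which occur more than once. With all reads that match the spliced transcript exactly, copies elsewhere included, the share was 78.9% and 79.9%.

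Much of the host mRNA could not be assigned to Rpl13a by sequence, because copies of the spliced transcript lie elsewhere in the genome. Of the 48-nt windows that fit within an exon, 0 of 26 in exon 2, 7 of 19 in exon 3 and 24 of 76 in exon 7 occurred once in mm9, against 344 of 428 in exon 8. Reads whose 48 nt match the spliced Rpl13a transcript exactly were therefore also counted wherever the aligner had put them. There were 2048 in ESCs and 1237 in NPCs, of which 46.9% (44.7 to 49.1) and 53.8% (50.9 to 56.6) had been placed outside the host. Most of those, 827 in ESCs and 572 in NPCs, lay at Gm11478, a pseudogene inside Vmp1 on chromosome 11. The annotated Rpl13a-ps1 (ENSMUSG00000062083.1) on chromosome 19 held 79 and 41 reads in all, a log2 ratio of -0.99 (-1.57 to -0.43). With all exact matches the log2 ratio of the host mRNA was -0.77 (-0.87 to -0.67), closer to that of Snord34 than the value at the locus.

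Reads that cross an exon junction were among these matches and come from spliced RNA or from a copy of it. They numbered 510 in ESCs and 396 in NPCs, 24.9% and 32.0% of the exact matches, and all but 9 and 2 of them had been placed at the copies. The reads had been aligned to the genome, in which 117 of the 329 windows of 48 nt over a junction occur. Their placement at the copies was thus largely set in advance, and the counts of junction reads and of all exact matches are lower limits. Read starts along the spliced transcript were concentrated at a few bases. Base 135, in exon 3, gave 467 reads in ESCs, 22.8% of the exact matches (21.0 to 24.7), and 263 in NPCs, 21.3% (19.0 to 23.6). Of the 987 possible positions, 276 had a read in ESCs and 215 in NPCs. The read that starts at base 135 is shown because it is the largest single contributor to the host count.
Exon 3 read: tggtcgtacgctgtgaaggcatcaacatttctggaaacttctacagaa
Its mm9 position in the host is chr7:52382585-52382632 on the minus strand, in coding sequence. The same 48 nt occur at 2 places in mm9, and the aligner had put 242 reads at the host in ESCs and 225 elsewhere, and in NPCs 124 and 139. The reads of this sequence were thus split between the host and its copy in both libraries.

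**Figure D5:**
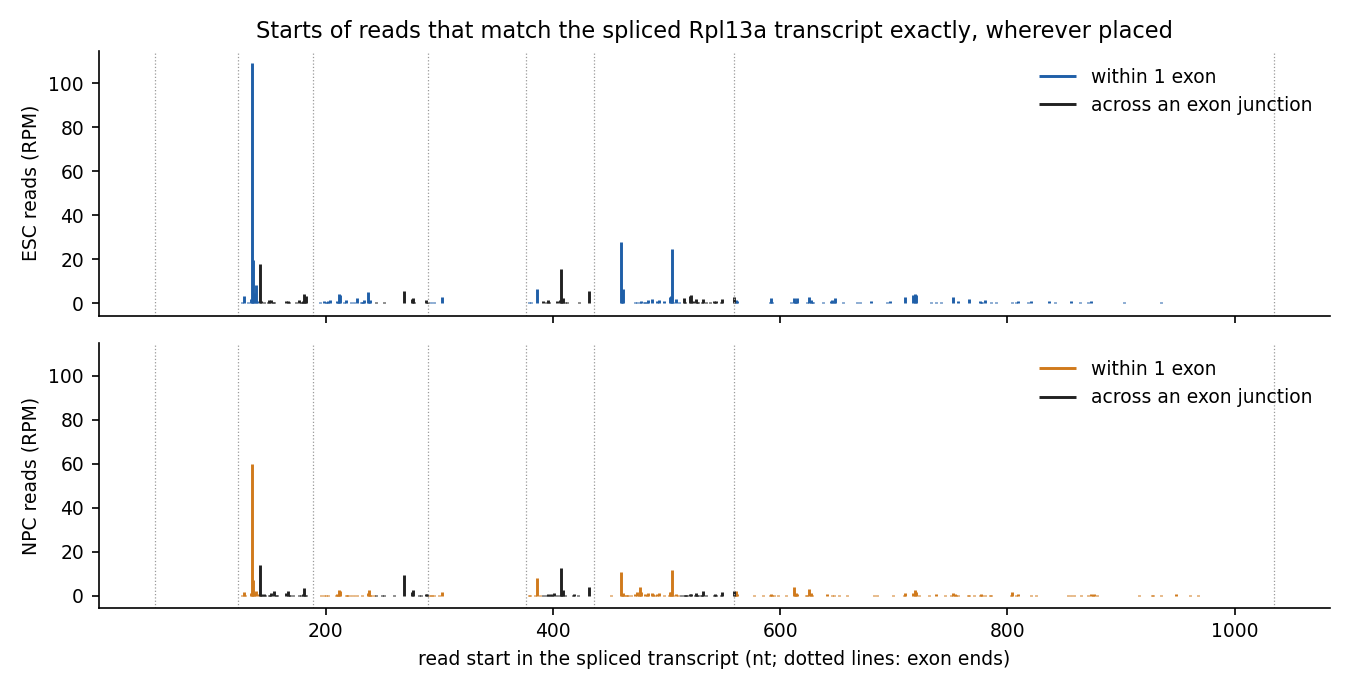
Starts of reads that match the spliced Rpl13a transcript exactly, in RPM, against the base of the transcript (nt), in the ESC library (upper panel) and the NPC library (lower panel), with reads across an exon junction in black. The tallest line stands at base 135 in both, and the lines in the last exon, to the right of the last inner dotted line, are short.

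Few reads came from unspliced host RNA. Reads that cross an exon-intron border with at least 4 nt on each side numbered 55 in ESCs and 33 in NPCs over all 14 borders, 1 of which, between intron 5 and exon 6, lies in the stretch without reads and could have none. Of these, 17 and 16 crossed from exon 2 into intron 2, and those that reached Snord32a in that intron were counted among its reads. Introns without a snoRNA held 52 reads in ESCs and 29 in NPCs, of which intron 1 had 39 and 28. Intron 3 had 13 reads in ESCs and 1 in NPCs. The snoRNA-bearing introns outside the snoRNAs held 4 and 2 reads, over the 159 positions at which a read fits without touching an exon or a snoRNA. On the opposite strand of the transcription unit there was 1 read in ESCs and 0 in NPCs, and 0 on any of the 4 snoRNAs in either library. A count of 0 allows up to 3 reads, or 0.0129% of the reads of the unit in ESCs and 0.0194% in NPCs, so within this limit the reads of the snoRNAs were all sense.

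Among the 83 ribosomal protein genes measured, Rpl13a ranked 16 from the lowest log2 ratio, and 14 and 18 from the highest RPKM in ESCs and NPCs. The median log2 ratio of these genes was -0.53, with 72 lower in NPCs and 11 higher. The 3 nearest to Rpl13a in log2 RPM over both libraries were Rpl6, with 1151 and 588 reads, Rplp1, with 1280 and 647, and Rps15, with 978 and 698. In all, 16 ribosomal protein genes held 35 C/D snoRNA genes, and Rpl13a with 4 was second to Rpl4 with 5, level with Rpl7a. The 30 C/D snoRNAs of the other hosts with at least 10 reads had a median log2 ratio of -0.49, 21 lower and 9 higher, and the 128 C/D snoRNAs elsewhere -0.16, 71 lower and 57 higher. The latter median was -0.48 over genes with at least 100 reads, so the 2 lists are not set apart by it. Among 162 C/D snoRNAs, Snord33 ranked 8 from the lowest log2 ratio, Snord32a ranked 42, Snord34 ranked 60 and Snord35a ranked 76. Unequal ratios within a host were not limited to Rpl13a. Across 9 hosts with at least 2 C/D snoRNAs of 100 reads or more, ranked by the gap between the highest and the lowest log2 ratio, Rpl13a ranked 4 with 1.31, and the narrowest gap was 0.09 in Rps3a.

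By level in log2 RPM over both libraries, Snord34 and Snord32a were each other's nearest C/D snoRNAs, followed for both by SNORD56 and Snord68, the latter in Rpl13. For Snord35a the nearest were Snord15b in Rps3, with 12457 and 10178 reads, SNORD25, with 17756 and 9879, and SNORD26, with 9267 and 10603. For Snord33 they were SNORD12, with 1916 and 768 reads, SNORD73 in Rps3a, with 1858 and 872, and Snord23, with 1422 and 702.

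Of 11 genes for the proteins of the C/D particle and for its assembly, 8 were higher in NPCs and 3 lower, against a background of 62.9% of all genes higher, and their median log2 ratio of 0.44 was near that of all genes. Nop58, a core protein, gave 340 ESC and 737 NPC reads, a log2 ratio of 1.07 (0.89 to 1.26), and was the 1 gene of the list more than 2-fold higher, where the background is 24.8% of all genes. The methyltransferase Fbl was at 0.44 (0.22 to 0.65) and the core protein Nop56 at 0.27 (0.09 to 0.45). Nhp2l1, which binds the snoRNA first, was at -0.23 with an interval across 0 (-0.59 to 0.13). Of the assembly factors, Znhit3 was at 0.89, Ruvbl1 at 0.63, Pih1d1 at 0.54, Znhit6 at 0.46, Rpap3 at 0.07 and Nufip1 at -0.40. Ruvbl2, the partner of Ruvbl1 in an ATPase ring, had 1051 and 435 reads, a log2 ratio of -1.32 (-1.48 to -1.15), and was the 1 gene of the list more than 2-fold lower, where the background is 12.8% of all genes. These are reads of mRNAs left in an NPA fraction.

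The labels of the libraries were checked against lists of marker genes. Of 11 pluripotency genes, 10 were lower in NPCs, with a summed level of 2367 RPM in ESCs and 857.6 in NPCs. Of 9 annotated neural progenitor genes, 6 had 10 reads, 3 of them higher and 3 lower in NPCs, with 83.1 and 87.1 RPM in sum, and Pax6 and Fabp7 were at 0 in ESCs with 11 and 2 reads in NPCs. All 10 extraembryonic endoderm genes were higher in NPCs, from 670.5 to 13064 RPM in sum. Of 8 fibroblast genes, which would mark the feeder cells, 6 had 10 reads, 5 of them higher and 1 lower in NPCs. The 8 had 43.1 and 57.7 RPM in sum, and Lum was at 0 in both. The neural progenitor list was near equal in sum and did not by itself set the NPC library apart. Of these marker lists, those of pluripotency and extraembryonic endoderm differed most between the libraries. The part of any list in the lower levels of Rpl13a and its snoRNAs in the NPC library was not tested.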

How the data were processed

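NPA RNA of ESCs and NPCs was sequenced on the SOLiD platform, with 1 library each and therefore no replicate error. The authors removed poly(A) RNA and ribosomal RNA, broke the RNA with RNase III, ligated adaptors to it so that strand was kept, took fragments of 150 to 250 bp and amplified them for 15 cycles. They aligned the reads to mm9 with Bowtie, keeping 1 placement per read without requiring it to be unique, and filtered out mitochondrial, ribosomal and repeat reads. The deposited files hold these read placements, 1 line per read with position, strand and a sequence of 48 nt, and raw counts were made from them here. Reads shortened beside a stretch without any read affect exon 6 of Rpl13a. Placement at 1 of several exact copies affects the host exons but not the snoRNAs, for which copies with mismatches were not searched.

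A read was assigned to a feature that it overlapped on the same strand by at least 1 base, snoRNAs first. Host exons were those of the consensus coding transcript Rpl13a-001. The planned union of exons over all transcripts takes in exons of a neighbouring gene and kept introns, so it is given as an alternative, as is the longest protein-coding transcript. RPM and RPKM were computed from the counts and the library totals. Intervals are exact Poisson for counts, Clopper-Pearson for shares, conditional binomial for ratios and conditional odds ratios for ratios of ratios. Log2 ratios of lists add 1 read to each library, and a gene needed 10 reads over both. The genes named are Rpl13a, each snoRNA in its body, the 3 nearest genes by log2 RPM, the list of C/D particle proteins, and annotated Rpl13a pseudogenes with at least 100 reads; Gm11478 was added after its values were seen. A further comparison under this rule is not reported here. The members, lists and rules were chosen with earlier results of these data known. Python 3 with NumPy, SciPy, pysam and Biopython was used, with versions recorded, and the counting and intervals were tested on simulated data. Tiling arrays were not used here.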

Additional observations from a re-analysis of the deposited data

Results flagged for a closer look

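The reads that match the spliced Rpl13a transcript but were placed outside its locus are not in the main count of host exons, and they numbered 960 in ESCs and 665 in NPCs. Because copies of the transcript exist in mm9 and 1 placement was kept per read, such reads have to occur, and their number alone shows nothing about the host. The log2 ratio of these reads was -0.57 (-0.72 to -0.43), against -0.97 (-1.12 to -0.82) for the exact matches placed at the host. The substitution A18C in Snord33 was read from the sequence column, which the counts do not use, in 663 ESC reads and 134 NPC reads. Its cause was not tested.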

How the results depend on the processing

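All 7 log2 ratios of the unit stayed below 0 under their alternatives, 56 of 57 values, except that of Snord32a when each start position was counted once, which came to 0.17. That setting gave -0.84 for Snord33, -0.57 for Snord34, -0.30 for Snord35a, -0.37 for the snoRNAs together and -0.55 for the exons, but a snoRNA has between 15 and 31 distinct starts per library, so it cannot show a level. Scaling by the median of ratios over genes, which moves the median of all genes by 0.34, gave -1.29 for Snord32a, -2.09 for Snord33, -1.01 for Snord34, -0.78 for Snord35a, -0.95 for the snoRNAs together and -1.33 for the exons. Scaling by reads outside the 10 largest clusters gave -1.05, -0.78 and -0.54 for Snord32a, Snord34 and Snord35a and -0.72 for the snoRNAs together. All reads that match the spliced transcript gave -0.77 for the exons. Alternatives added once the data had been seen were reads without a mismatch, which gave -1.55 for Snord33, and leaving out exon 6, which gave -1.05 for the exons.

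The share of reads on snoRNAs was 96.9% in ESCs and 97.6% in NPCs with reads whose sequence occurs once, and 29.1% and 32.0% with each start counted once. The snoRNA level over exons per length was then 1.53 and 1.73. It was 104.0 and 132.2 with the longest protein-coding transcript, 173.5 and 227.1 with exons of all transcripts, 34.1 and 37.996 with all reads that match the spliced transcript, and 63.8 in ESCs with length taken as unique positions. The share of exon reads up to base 517 was 57.0% and 59.6% with unique reads and 46.8% and 51.5% with each start counted once. It was 78.9% and 79.9% with all reads that match the spliced transcript exactly. With 2 bases on each side, the share at the most used start was 98.2% and 97.9% for Snord32a, 90.3% in both for Snord33, 97.6% and 98.4% for Snord34 and 99.4% and 99.1% for Snord35a. The median of ribosomal protein genes was -0.30 with each start counted once, and that of C/D snoRNAs outside these hosts was -0.48 over genes with at least 100 reads. The causes of these differences were not tested.

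No paired analysis was possible because each cell type has 1 library and the labels give no replicate numbers. Leaving out a replicate does not apply, and the spread between replicates is unknown.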
